A study of Mus musculus with 22 samples.

Results

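Klhl3, its ligase partner Cul3, the WNK kinases Wnk1, Wnk2 and Wnk3, the kinases Stk39 and Oxsr1 that act after them, and the chloride cotransporters Slc12a2 and Slc12a5 were measured in bulk RNA of mouse brain. These 9 genes, of 24421 in the count tables, were found by their symbols. Klhl3 is taken to have been chosen by its call in the comparison of dominant with submissive females in earlier results of these same counts, Wnk1 was known from those results as well, and the other members were taken for their place in the same pathway. Values of that comparison are therefore given as a description, with no p, and its counts of calls support nothing.

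The study asked how the brain transcriptome differs between the top and the bottom of a social hierarchy. Mice were ranked within their cage by the tube test at 10 to 12 weeks of age. That test is a contest in a narrow tube that ends when 1 mouse retreats. The labels write the strain of these mice as C57B6/J OlaHsd, a spelling that differs from that in the study's methods. The most dominant and the most submissive animal of a cage were sacrificed simultaneously, with no treatment named in the labels, and each library is the right brain hemisphere of 1 mouse, as total RNA depleted of ribosomal RNA and sequenced with strand information. There were 7 dominant and 7 submissive males from 7 cages, and 4 dominant and 4 submissive females from 4 cages. Cages are called by the replicate number of their mice, so male cage 1 held dominant male 1 and submissive male 1. Per the study's methods, female intermediates were regrouped and ranked again, and the labels do not say which libraries came from such groups.

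The number of reads counted over all genes ran from 12403943 to 15099149 in dominant males (median 14166495) and from 12851198 to 15805170 in submissive males (median 14379997). It ran from 15375100 to 16488762 in dominant females (median 15663822) and from 14967458 to 16462771 in submissive females (median 15875616). Levels are in CPM, each count divided by the effective size of its library (total times TMM factor), and a level compared between genes is in CPM per kb of exon. Klhl3 had 207 to 308 counts per sample, so its counting error alone was 6.95% at the lowest count, and Slc12a5 had 3460 to 6200. Males and females were counted in separate tables and their libraries carry different project names, so sex and library project cannot be told apart.

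The label of the tissue was compared with marker genes. All 7 neuron markers were counted in every sample, with a summed level of 3992 to 5014 CPM and Snap25 as the most abundant at 1624 CPM, and the 5 oligodendrocyte markers summed to 4316 to 5816 CPM, led by Mbp at 2451 CPM. The 5 astrocyte markers summed to 1553 to 1946 CPM (Slc1a3 most abundant, 842 CPM), the 5 microglia markers to 204 to 246 CPM (Csf1r, 107 CPM) and the 5 endothelium markers to 98.1 to 133 CPM (Flt1, 31.0 CPM). Of the 5 blood markers, the 4 haemoglobin genes had 0 counts in all 22 samples, and only Alas2 was counted, at a mean of 5.46 CPM. The blood list thus rests on Alas2 alone. Whether haemoglobin RNA was absent or its reads were left uncounted was not tested. The 7 cerebellum markers, led by Car8 at 382 CPM, summed to 42.0 CPM in dominant male 1, the lowest of all samples, where Pcp2 had 0 counts, and to as much as 1202 CPM elsewhere, so the dissected hemispheres did not all hold the same share of cerebellum RNA. In bulk tissue, fewer cells of a type and less RNA per cell cannot be told apart, and this holds for every level given here.

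Klhl3 is a Kelch-repeat protein that brings substrates to a Cul3 ubiquitin ligase, and its best known substrates are the WNK kinases, which are ubiquitinated and degraded. WNK kinases sense intracellular chloride and osmotic stress and phosphorylate SPAK, the product of Stk39, and OSR1, the product of Oxsr1. Those kinases in turn activate the sodium, potassium and chloride importer NKCC1, encoded by Slc12a2, and inhibit the potassium and chloride exporter KCC2, encoded by Slc12a5, which together set neuronal chloride and thereby the response to GABA. Mutations of human KLHL3, CUL3 or WNK genes cause a familial hypertension with high blood potassium.

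In the mm10 build the counted exons of Klhl3 lie on chromosome 13 from 58004957 to 58102428 on the minus strand, in 17 exon blocks of 2142 bases. They cover 29.3% of the gene's exon bases in GENCODE but 99.2% of its coding bases, so most of its untranslated exon bases were not counted. Cul3 lies on chromosome 1 (80266818 to 80340430, minus strand, 2764 exon bases). Wnk1 lies on chromosome 6 (119923969 to 120038655, minus strand, 12052 exon bases), Wnk2 on chromosome 13 (49036302 to 49148328, minus strand, 8688) and Wnk3 on chromosome X (151198078 to 151320192, plus strand, 10400). The SPAK gene Stk39 lies on chromosome 2 (68210447 to 68471981, minus strand, 3247 exon bases) and the OSR1 gene Oxsr1 on chromosome 9 (119238433 to 119322427, minus strand, 4775). Slc12a2 lies on chromosome 18 (57878678 to 57946821, plus strand, 6520 exon bases) and Slc12a5 on chromosome 2 (164967988 to 164999731, plus strand, 6023). Of the members, only Wnk3 shared counted bases with another gene, 343 bases with A230072E10Rik on the other strand. All 9 members passed the filter on low counts in both tables and in the joint fit.

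Per kb of exon, the scaffold and the exporter were the most abundant members. Over all 22 samples the mean level was 57.6 ± 6.74 CPM per kb (SD) for Cul3 and 57.4 ± 5.42 CPM per kb for Slc12a5, followed by Stk39 at 46.2 ± 2.19 CPM per kb and Slc12a2 at 32.6 ± 2.36 CPM per kb. Cul3 and Slc12a5 overlapped over samples (47.6 to 70.1 and 46.4 to 67.3 CPM per kb), while Stk39 lay above Slc12a2 in every sample (42.5 to 50.4 against 26.7 to 37.7 CPM per kb). The ranges of Stk39, Cul3 and Slc12a5 ran into each other at their ends. Oxsr1 came next at 19.5 ± 0.988 CPM per kb, then Wnk1 at 18.3 ± 4.05, Wnk3 at 13.9 ± 0.845, Klhl3 at 8.28 ± 1.07 and Wnk2 at 6.09 ± 0.771 CPM per kb. In males alone the mean of Wnk1 (20.25 CPM per kb) was just above that of Oxsr1 (20.05), and that of Slc12a5 (54.8) above that of Cul3 (53.1). In females alone the means kept the order given. Slc12a2 stayed above Oxsr1 in every sample, Oxsr1 overlapped Wnk1, Wnk1 overlapped Wnk3 and Klhl3 overlapped Wnk2, whereas all Wnk3 levels (12.3 to 15.3 CPM per kb) lay above all Klhl3 levels (6.37 to 10.1 CPM per kb). Klhl3 was thus among the least abundant members, below the ligase and the kinases other than Wnk2. Among listed genes of the same machinery, the most abundant per kb were Nedd8 (105 CPM per kb) of the ligase machinery, Enc1 (87.2) of the other Kelch adaptors, Cab39 (97.2) of the WNK regulators and cofactors, and Slc4a10 (85.0) of the other chloride transporters and channels. Neto2 (32.1) was the only gene of the Slc12a5 partner proteins that was analysed. Wnk4, the remaining WNK kinase, was the least abundant of its list at 0.348 CPM per kb.

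**Figure D1:**
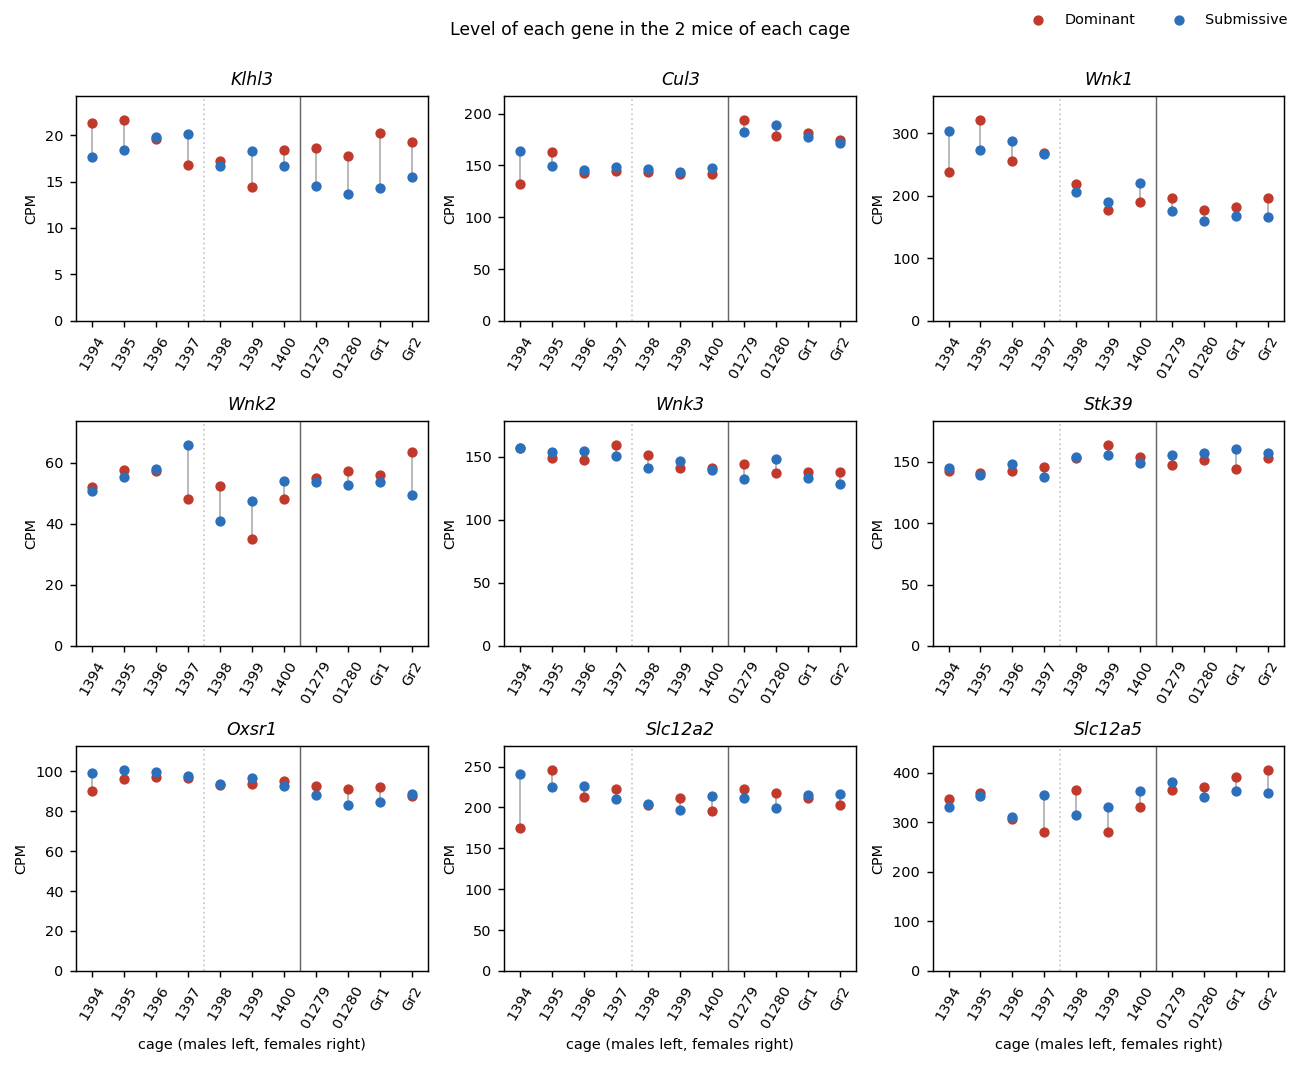
Level of each member in CPM (vertical axes) by cage (horizontal axis, labelled as in the library names, in the order of replicates), with dominant and submissive mice as separate points joined by a line. Klhl3 in the females' 4 cages is higher in the dominant mouse of each pair, and Wnk1 is higher in the 4 leftmost male cages (male cages 1 to 4) than in the other 3 (male cages 5 to 7).

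Within females the comparison asked whether dominant mice differ from submissive ones, and the main fit did not pair the mice of a cage. Klhl3, the substrate adaptor, was at 18.6, 17.7, 20.2 and 19.3 CPM in the dominant females of cages 1 to 4, in that order, and at 14.5, 13.6, 14.3 and 15.4 CPM in the submissive females of the same cages. The ranks did not overlap, the dominant mice being the higher, and the dominant mouse was the higher of the pair in each cage. The mean was 18.9 ± 1.04 CPM (SD, n = 4) against 14.5 ± 0.743 CPM (n = 4), a log2 fold change of 0.38 with a standard error of 0.069. In cages 1 and 2 alone it was 0.37 and in cages 3 and 4, whose library names carry the prefix Gr, 0.39.

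Cul3, the ligase scaffold, ran from 175 to 194 CPM in the dominant mice and from 172 to 189 CPM in their submissive cage mates, and its log2 fold change was 0.0078. The groups overlapped almost completely. Wnk1, the most abundant WNK kinase, was at 196, 178, 181 and 196 CPM in the dominant females of cages 1 to 4, and at 176, 160.3, 167 and 167 CPM in their submissive cage mates, a log2 fold change of 0.16 with a standard error of 0.038. Wnk2 was at 55.0, 57.4, 55.8 and 63.5 CPM in the dominant mice and at 53.6, 52.8, 53.6 and 49.3 CPM in the submissive mice, a log2 fold change of 0.14. For both kinases the dominant mice were all above the submissive ones, by a narrow margin between the nearest mice. Wnk3 overlapped between the ranks and changed by 0.034 (log2). Stk39, the SPAK gene, went the other way, at 147, 152, 144 and 153 CPM in the dominant mice and at 155, 158, 161 and 158 CPM in the submissive mice, a log2 fold change of -0.089. Its 4 dominant females all lay below the submissive ones. The log2 fold change of Oxsr1, which encodes the related kinase OSR1, was 0.070, that of Slc12a2 0.013 and that of Slc12a5 0.070. The signs of Cul3 and Slc12a2 hung on single libraries, being -0.025 and -0.0087 without dominant female 1.

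In this contrast, on which Klhl3 was selected, edgeR called 1 of 9 members, Klhl3, beside 0.0942% of all genes tested (14 of 14865). DESeq2 called 1 of 9, Wnk1, beside 78 of 19834 genes, of which 5222 had an adjusted p, and gave Klhl3 no adjusted value. Klhl3 was no longer called by edgeR when any library other than dominant female 2 was left out, with log2 fold changes of 0.35 to 0.42 over all 8 omissions. Without dominant female 2 both Klhl3 and Wnk1 were called. The ranks did not overlap in 4 of 9 members, Klhl3, Wnk1, Wnk2 and Stk39, beside 5.46% of genes (812 of 14865), and the median log2 fold change was 0.070 over members and -0.0020 over all genes. Since the members were chosen with this contrast known, nothing is read from these counts.

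The exon length trend and marker genes were compared between the same females. The exon length trend, the median log2 deviation of 746 genes with at least 8000 exon bases minus that of 4304 genes with at most 2000, was -0.14 to -0.054 in dominant and -0.21 to -0.16 in submissive females, with no overlap. With that trend removed, the log2 fold change of Klhl3 was 0.40, that of Wnk1 0.083 and that of Stk39 -0.087. The estimates of Klhl3 and Stk39 thus kept their size and Wnk1, with its long exons, lost part of it. The ranks then overlapped for Wnk1 (lowest dominant mouse 190 CPM, highest submissive mouse 196 CPM) and for Wnk2 (57.1 and 58.0 CPM). For Klhl3 and Stk39 they still did not overlap. With this correction edgeR no longer called Klhl3, and with the cage block added it called Klhl3 again. The 7 choroid plexus markers, led by Ttr at a mean of 692 CPM over all samples, summed to 788 ± 67.2 CPM in the dominant mice and 905 ± 153 CPM in the submissive mice, sums that overlapped, with all 7 estimates lower and 0 called by edgeR or by DESeq2, which gave an adjusted p to Ttr alone, 5 of them at an unadjusted p under 0.05 by edgeR. The 6 hypothalamus markers, led by Pmch at 26.7 CPM, summed to 23.1 to 50.5 CPM and 44.7 to 51.6 CPM, with all 5 estimates lower, 0 called by edgeR, 2 at an unadjusted p under 0.05 and no adjusted p from DESeq2. The blood marker Alas2 was at 3.86 to 5.99 CPM in the dominant mice and 2.56 to 3.78 CPM in the submissive mice, with no overlap, and was not called. The 4 hindbrain serotonergic markers, led by Tph2 at 11.6 CPM, summed to 3.86 to 12.5 CPM in the dominant mice and 11.6 to 29.4 CPM in the submissive mice. Of these, 2 were called lower by edgeR and Fev was at 0 in 16 of 22 samples. The sums of the other 6 marker lists overlapped between the ranks. The part of these markers in the level of Klhl3 was not tested.

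The same comparison in males rests on other mice than the contrast taken to have chosen Klhl3. Klhl3 ran from 14.5 to 21.6 CPM in dominant males (median 18.4) and from 16.6 to 20.1 CPM in submissive males (median 18.3). Dominant males were both the highest and the lowest, so the ranks overlapped throughout, and the dominant mouse was the higher in 4 of 7 cages. The log2 fold change was 0.019 with a standard error of 0.080, and the edgeR quasi-likelihood test gave an adjusted p of 1.00 after Benjamini-Hochberg correction over all genes. Its sign is not settled, since it was -0.017 without dominant male 1 and -0.022 without dominant male 2, and likewise just below 0 without submissive male 5 (-0.0017) or submissive male 7 (-0.0011).

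Wnk1 ran from 178 to 321 CPM in dominant males (median 238) and from 189.6 to 303 CPM in submissive males (median 268), a log2 fold change of -0.067 with a standard error of 0.12. That fit did not pair the mice of a cage. With the cage block the estimate was -0.073 with a standard error of 0.056, and Wnk1 was still not called. Its spread within each rank was far wider than in females. Wnk2 changed by -0.085 and Wnk3 by 0.0029 (log2), Cul3 by -0.054, Stk39 by 0.016 and Oxsr1 by -0.042. Among the cotransporters, Slc12a2 changed by -0.050 and Slc12a5 by -0.055. With each library left out in turn, Wnk3 ran from -0.013 to 0.018 and Stk39 from -0.0073 to 0.029. The dominant male was the higher in 1 of 7 cages for Cul3 and also for Oxsr1. All 9 members overlapped between the ranks, a description only, since the share of all genes that did so is not given here. By edgeR, 0 of 9 members were called, beside 0% of all genes tested (0 of 14737); 0 of 9 members and 194 genes had an unadjusted p under 0.05, and DESeq2 also called 0. The members' median log2 fold change was -0.050, against -0.0015 over all genes, and 3 of 9 estimates were above 0. Dominant male 1, the sample nearly without cerebellum markers, was also the lowest in Slc12a2, at 174 CPM, and in Cul3, at 132 CPM, and without it the log2 fold change of Slc12a2 was -0.0094 and that of Cul3 -0.033.

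The difference between the rank effects of the sexes was estimated by an interaction term in the joint fit of 22 samples. This term shares the females' contrast on which Klhl3 was selected, so its value for Klhl3 is not independent of that choice. The rank effect of Klhl3 was larger in females by 0.37 (log2, standard error 0.12). For Oxsr1, whose estimate was positive in females and negative in males, the difference was 0.12 (standard error 0.050). By edgeR 0 of 9 members were called, beside 0% of all genes (0 of 15233), with 2 members, Klhl3 and Oxsr1, and 505 genes at an unadjusted p under 0.05 and 0 called by DESeq2. The adjusted p was 0.999 for every member. The median difference was 0.12 over members and 0.0067 over all genes, with 8 of 9 estimates above 0. Since the members were chosen with the females' contrast known, nothing is read from this median or from these counts of members. With no member called, a rank effect of these genes in females only was not established by its own test. All estimates of this term were below 0 for choroid plexus (median -0.38), hypothalamus (-0.33) and serotonergic markers (-1.41). All were above 0 for cerebellum (median 0.20) and endothelium markers (0.11) and for Alas2 (0.58). By edgeR 0 of these markers were called, and their part in the interaction was not tested.

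Cages were compared within each sex with rank in the model, each cage giving 1 dominant and 1 submissive mouse. Wnk1 in the dominant and the submissive male was at 238 and 303 CPM in cage 1, 321 and 274 CPM in cage 2, 256 and 287 CPM in cage 3, and 268 and 268 CPM in cage 4. It was at 219 and 206 CPM in cage 5, 178 and 189.6 CPM in cage 6, and 189.7 and 220.2 CPM in cage 7. All 8 males of cages 1 to 4 were above all 6 males of cages 5 to 7, whatever their rank. No label divides the cages after cage 4, and this division was chosen with earlier results of these data known, so the overlap of the 2 sets is a description. The means were 277 ± 26.6 CPM (n = 8) and 200.5 ± 17.5 CPM (n = 6). The test of all cages gave an adjusted p of 0.00657 by edgeR and 1.72e-11 by DESeq2. Wnk1 was the only member called, 1 of 9 beside 5.89% of all genes tested (868 of 14737).

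Stk39, whose product WNK kinases phosphorylate, was lower where Wnk1 was higher. It ran from 138 to 148 CPM in cages 1 to 4 (143 ± 3.39, n = 8) and from 149 to 164 CPM in cages 5 to 7 (155 ± 4.85, n = 6), with no overlap. The test of all cages gave it an adjusted p of 0.209 by edgeR and 0.481 by DESeq2, so it was not called. These 2 of 9 members were the ones whose cage sets did not overlap, beside 8.74% of all genes (1288 of 14737). Klhl3 was at 19.4 ± 1.69 CPM in cages 1 to 4 and 16.9 ± 1.42 CPM in cages 5 to 7, and Wnk2 at 55.6 ± 5.46 and 46.3 ± 7.16 CPM, and in both the cage sets overlapped. The adjusted p of the cage test was 0.518 for Klhl3 and 0.242 for Wnk2. Slc12a2 had an adjusted p of 0.636 with all males and of 0.0191 without submissive male 1, when dominant male 1 stood alone for its cage and was assumed to vary like the others.

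The exon length trend moved with the same cages. It was 0.13 to 0.26 in cages 1 to 4 and -0.16 to 0.0078 in cages 5 to 7, with no overlap, and Wnk1 has the most exon bases of the members. With the trend removed, Wnk1 ran from 216 to 279 CPM and from 195 to 224 CPM in these cages, which overlapped, and its adjusted p by edgeR was 0.0688. Across 19 alternatives Wnk1 was called in 18, the removal of the length trend being the exception, with adjusted p from 1.72e-11 to 0.0688. Stk39 with the trend removed ran from 139 to 149 CPM and from 149 to 164 CPM, ranges that met at their ends. Neuron markers summed to 4134 ± 161 CPM in cages 1 to 4 and 4310 ± 164 CPM in cages 5 to 7, and choroid plexus markers to 689 ± 144 and 833 ± 154 CPM. Astrocyte markers summed to 1777 ± 115 and 1871 ± 59.4 CPM, endothelium markers to 111 ± 9.39 and 122 ± 7.83 CPM, and serotonergic markers to 21.2 ± 10.9 and 21.3 ± 12.8 CPM. The cage test called 2 of 7 neuron, 1 of 5 astrocyte, 1 of 5 endothelium and 2 of 3 serotonergic markers tested, and the sums of all marker lists overlapped between the cage sets. The part of the length trend beyond this correction, and of the markers, was not tested. Cages follow the order of the library numbers, so a cage and the position in that order cannot be told apart.

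Of the other pathway genes, 3 of 47 tested (6.38%) were called between male cages by edgeR, and 3 by DESeq2. That share is near the 5.89% of all genes called in the same test and is no result about the pathway. Ube2m, which loads Nedd8 onto cullins, was at 62.4 ± 3.63 CPM in cages 1 to 4 and 77.2 ± 1.19 CPM in cages 5 to 7 (adjusted p 0.00439). Keap1, another Kelch adaptor of Cul3, was at 52.5 ± 2.65 and 62.2 ± 1.55 CPM (adjusted p 0.0237). Nedd4l, a ubiquitin ligase that acts on ion transporters, was at 139 ± 8.84 and 116 ± 11.3 CPM (adjusted p 0.0464). Nedd4l was thus the higher in cages 1 to 4, and Ube2m and Keap1 in cages 5 to 7. The values of these 3 genes are not corrected for the exon length trend, which differed between the same cages. Between ranks, edgeR and DESeq2 each called 0 of these 47 genes in females, in males and in the interaction, where 6, 0 and 2 of them had an unadjusted p under 0.05. Over all genes tested by edgeR, 1563 of 14865 (10.5%), 194 of 14737 (1.32%) and 505 of 15233 (3.32%) had such a p. These counts are therefore no result about the pathway.

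Between the females' 4 cages, Wnk1 ran from 160.3 to 196 CPM with no such division. By edgeR 0 of 9 members were called, beside 0.0740% of all genes tested (11 of 14865). In this test 0 members and 759 genes had an unadjusted p under 0.05, and DESeq2 called 5 genes and 0 members. The adjusted p ran from 0.974 to 0.999 over the members. Of the 47 other pathway genes 0 were called by edgeR or DESeq2, with 4 at an unadjusted p under 0.05.

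**Figure D2:**
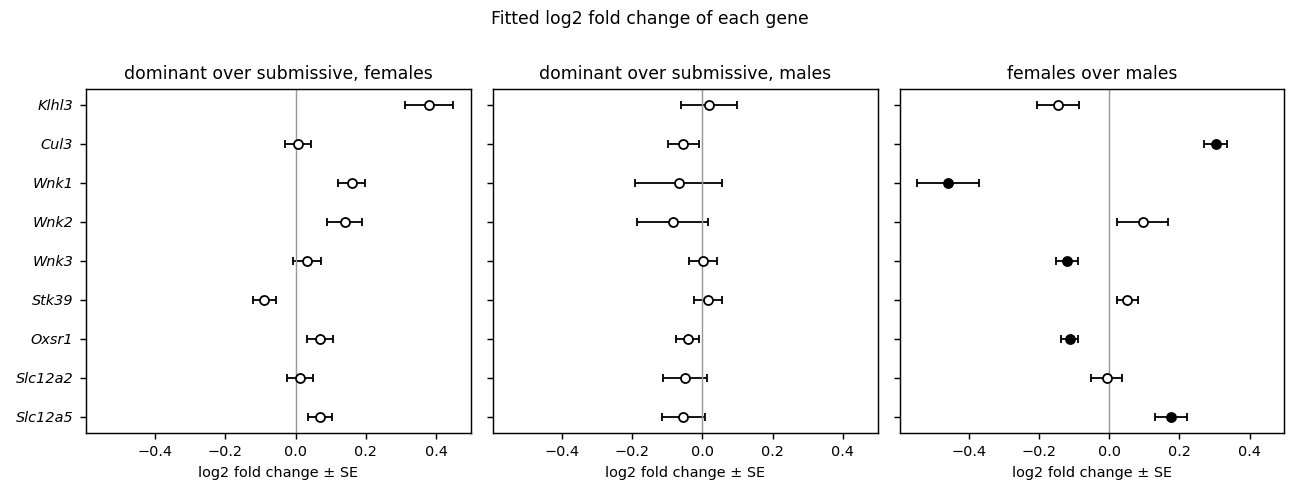
Log2 fold change of each member with its standard error (horizontal axis) in the comparisons of rank in females, rank in males and females over males, with filled points for an adjusted p under 0.05 in the panels other than rank in females. Cul3 is the farthest to the right and Wnk1 the farthest to the left in the comparison of females with males, and the estimates of rank in females are description only.

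The female and the male table were compared over all 22 samples, where sex cannot be told apart from library project. Cul3 ran from 132 to 164 CPM in males (median 145) and from 172 to 194 CPM in females (median 179.7). Every female was above every male. The log2 fold change of females over males was 0.30 with a standard error of 0.033 and an adjusted p of 6.62e-08, and Cul3 was called in all 27 alternatives. Slc12a5, the chloride exporter of neurons, was also higher in females, at 351 to 405 CPM (median 368) against 279.5 to 365 CPM in males (median 331), a log2 fold change of 0.18 with a standard error of 0.044 and an adjusted p of 0.00279. The ranges overlapped slightly. Neuron markers summed to 4821 ± 105 CPM in females and 4209 ± 180 CPM in males (2 of 7 called, both higher in females), and cerebellum markers to 992 ± 166 and 767 ± 256 CPM, with all 7 estimates higher in females and 1 called. Oligodendrocyte markers summed to 4809 ± 313 and 5275 ± 264 CPM (3 of 5 called lower in females) and astrocyte markers to 1723 ± 74.4 and 1817 ± 104 CPM (2 of 5 called lower). Alas2, 1 serotonergic and 2 choroid plexus markers were also called lower in females, 1 microglia marker higher and 1 lower, and 0 endothelium or hypothalamus markers by edgeR or DESeq2, with 1 and 0 at an unadjusted p under 0.05 by edgeR. The choroid plexus list went both ways, with 4 of 7 estimates higher in females. Its sum was 846 ± 126 CPM in females and 751 ± 160 CPM in males. The part of these markers in the levels of Cul3 and Slc12a5 was not tested.

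Members lower in females were Wnk1, Wnk3 and Oxsr1. Wnk1 ran from 160.3 to 196 CPM in females (median 177) and from 178 to 321 CPM in males (median 247), a log2 fold change of -0.46 with a standard error of 0.089 and an adjusted p of 2.11e-04. The females lay near the males of cages 5 to 7 and below all those of cages 1 to 4. Oxsr1 ran from 83.1 to 92.7 CPM in females (median 88.5) and from 89.9 to 101 CPM in males (median 96.1), a log2 fold change of -0.11 with an adjusted p of 8.49e-04. Wnk3, which is X-linked, ran from 128 to 148 CPM in females (median 137) and from 139.7 to 159 CPM in males (median 149.8), a log2 fold change of -0.12 with an adjusted p of 0.00351. In all these genes the sexes overlapped. The exon length trend was -0.14 ± 0.058 in females and 0.075 ± 0.13 in males. With it removed, Wnk1 kept its direction at -0.25 (adjusted p 0.00112) and Oxsr1 at -0.089 (adjusted p 0.00380), but Wnk3 turned to 0.046 (adjusted p 0.251), so the lower Wnk3 of females held only without that correction.

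These tests take the 22 mice as independent, although they come from 11 cages and Wnk1 differed between male cages. Males of different cages were also alike within a cage set. The mean correlation of such dominant and submissive males was 0.140 in cages 1 to 4 and 0.258 in cages 5 to 7, against -0.186 across the sets. Summing the counts of a cage does not remove this likeness, so the adjusted p values that follow still take the cages of a set as independent. With the counts of a cage summed, an alternative chosen after seeing the data, edgeR called 5 of 9 members, beside 4523 of 15827 genes, with an adjusted p of 8.52e-06 for Cul3, 0.00495 for Slc12a5, 0.00417 for Wnk1, 0.0102 for Oxsr1 and 0.0185 for Wnk3.

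The other members were not called. Klhl3 was at 18.3 ± 1.98 CPM in males (n = 14) and 16.7 ± 2.54 CPM in females (n = 8), a log2 fold change of -0.15 with an adjusted p of 0.0549 by edgeR and 0.0483 by DESeq2. Submissive females lay below all males other than dominant male 6, and dominant females lay within the range of the males. Over 27 alternatives its adjusted p ran from 0.00685, without dominant male 6, to 0.105, with counts summed per cage, and 13 of them called it, 10 of these by leaving out 1 library (any of dominant males 4 to 7, submissive males 1, 5, 6 and 7, dominant female 3 or submissive female 4). Wnk2 changed by 0.096 (adjusted p 0.323) and, with the length trend removed, by 0.23 (adjusted p 0.00218). Stk39 changed by 0.052 (adjusted p 0.173) and Slc12a2 by -0.0072 (adjusted p 0.918). By edgeR 5 of 9 members were called, beside 36.2% of all genes tested (5512 of 15233), 2 higher in females, beside 18.4%, and 3 higher in males, beside 17.8%. With that many genes called, the members' share is no result about the pathway. Their median log2 fold change was -0.0072, against -0.00015 over all genes. DESeq2 called 6 of 9, beside 5391 of 20613 genes, of which 15816 had an adjusted p.

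Of the other pathway genes 18 of 47 (38.3%) were called between the tables by edgeR, 8 higher and 10 lower in females, and 19 by DESeq2. That share is near the 36.2% of all genes called, so the genes named next are a description. Their values are not corrected for the exon length trend. The ligase machinery had Ube2m (0.24, log2) and Rbx1 (0.12) higher and Cand1 (-0.098) lower. Among 20 other Kelch adaptors, Klhl21 (0.58), Klhl2 (0.20), Kbtbd7 (0.17) and Kbtbd2 (0.11) were higher and Klhl22 (-0.16), Enc1 (-0.13) and Klhl11 (-0.11) lower. Klhl2 is the Kelch adaptor closest to Klhl3 and also acts on WNK kinases. Among the 6 WNK regulators and cofactors, Nedd4l (-0.24) was lower. Of 13 other chloride transporters and channels tested, Clcn2 (0.14) was higher, and those lower included Clcn5 (-0.34), Clcn6 (-0.33), Slc4a8 (-0.31) and Clcn7 (-0.17). Neto2, which binds the exporter encoded by Slc12a5, was higher (0.087).

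The balance of the exporter to the importer was taken as the ratio of Slc12a5 to Slc12a2 in CPM per kb. It was 1.69 ± 0.287 in dominant males (n = 7), 1.69 ± 0.154 in submissive males (n = 7), 1.95 ± 0.174 in dominant females (n = 4) and 1.87 ± 0.0715 in submissive females (n = 4). It ran from 1.36 to 2.15 in males and from 1.78 to 2.17 in females. Slc12a5 exceeded Slc12a2 per kb in every sample, and the ranks overlapped in both sexes.

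How the members varied together was described on log2 CPM after subtraction of each group's mean, over 22 samples, which share cages, library projects and the exon length trend. Of 36 pairs of members, Pearson's r was above 0 in 24 and below 0 in 12. The lowest was Wnk1 with Stk39 at -0.77, which was -0.82 in the 14 males and 0.013 in the 8 females. Within cages 1 to 4 it was 0.17 and within cages 5 to 7 it was -0.80, so the opposite movement of these kinases was seen between the male cage sets and within the latter set, not within the former or in females. The highest was Cul3 with Slc12a2 at 0.74, which was 0.88 in males, 0.84 in males without dominant male 1 and 0.037 in females. Klhl3 moved with Wnk2 (r 0.72; 0.80 in males, -0.22 in females) and against Stk39 (r -0.72; -0.75 in males, -0.43 in females).

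Among 14668 other genes, those most like Klhl3 over the 22 samples were Btc (Pearson's r 0.87, Spearman's rho 0.86), Adam19 (0.86 and 0.78) and Actn1 (0.85 and 0.82). Btc was low, at a mean of 0.959 CPM. In males alone r was 0.89, 0.90 and 0.88 for these genes and in females alone 0.72, 0.57 and 0.60. For Wnk1, which was singled out after its values were seen, the most alike were Atp1b2 (r 0.98), Zfp871 (0.97) and Nfat5 (0.96).

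Promoters are shown for Klhl3, the member that chose the set, and for Wnk1 and Stk39, whose male cage sets did not overlap, in opposite directions, although Stk39 was not called. RefSeq held 9 promoters of 8 members for the GRCm38.p6 build, and each sequence below is the 250 bases before the start, 5′ to 3′ on the gene's own strand, at chr13:58113648-58113897 (minus strand) for Klhl3, chr6:120038656-120038905 (minus strand) for Wnk1 and chr2:68471982-68472231 (minus strand) for Stk39. Capitals mark matches, on either strand, to the TATA box (TATAAA), the CCAAT box, the GC box (GGGCGG) or the core of the cAMP response element (TGACGT).
Klhl3: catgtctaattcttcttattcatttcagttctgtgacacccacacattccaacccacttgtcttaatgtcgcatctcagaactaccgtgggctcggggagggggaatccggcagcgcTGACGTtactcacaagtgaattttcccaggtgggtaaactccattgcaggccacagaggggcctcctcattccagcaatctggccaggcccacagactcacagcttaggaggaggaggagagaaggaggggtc
Wnk1: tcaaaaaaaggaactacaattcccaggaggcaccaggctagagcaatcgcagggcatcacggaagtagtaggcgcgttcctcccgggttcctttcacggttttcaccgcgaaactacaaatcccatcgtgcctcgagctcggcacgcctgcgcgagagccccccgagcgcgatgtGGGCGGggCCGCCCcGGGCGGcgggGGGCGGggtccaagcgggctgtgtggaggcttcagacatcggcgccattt
Stk39: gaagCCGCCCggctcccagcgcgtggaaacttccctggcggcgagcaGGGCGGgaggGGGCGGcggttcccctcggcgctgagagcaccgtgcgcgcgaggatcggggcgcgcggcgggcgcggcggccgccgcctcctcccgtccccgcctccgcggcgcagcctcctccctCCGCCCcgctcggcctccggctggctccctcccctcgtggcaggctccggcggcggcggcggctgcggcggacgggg
The Klhl3 promoter held 1 match, to TGACGT, and its GC content was 53.2%. The Wnk1 promoter held 4 matches to GGGCGG, with a GC content of 64%. The Stk39 promoter held 4 matches to GGGCGG and had a GC content of 82.4%, against a median of 52.4% over 32851 promoters of the same length. Of these promoters 12.4% held the TATA box, 33.8% the CCAAT box, 32.7% the GC box and 6.47% the core of the cAMP response element. The Klhl3 start used here lies upstream of its counted exons, which end at 58102428, while the Wnk1 and Stk39 promoters adjoin theirs. A match describes the letters and is not shown to be a bound site.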

How the data were processed

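Total RNA of the right hemisphere of 22 mice was measured. The deposited values are raw counts of reads per gene, which the authors made by trimming with cutadapt 1.15 and bbduk, checking with FastQC 0.11.8, mapping to mm10 with STAR 2.6.0a and counting with featureCounts 1.6.2, per their processing notes. The deposited tables also give, as their other unit, the exon bases per gene, used for levels per kb. The strand setting of the counting is not stated. Sex, rank and replicate come from the labels, and cage from the library names.

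Counts were analysed in R 4.3.3 with edgeR 4.0.16 (limma 3.58.1): TMM factors, filterByExpr (minimum count 10, minimum total count 15), a prior count of 2, and the quasi-likelihood F test, with Benjamini-Hochberg adjustment over all genes tested and a threshold of 0.05. Rank and cage were fitted within each table (14 males, 8 females), and table and interaction over all 22 samples. The main fits of rank, table and interaction held no cage term, and the fit of cage held rank. DESeq2 1.42.0 was the other test. Printed CPM use factors over all 22 samples. Figures were drawn with Python 3.11.15 and matplotlib 3.10.9. The code was tested on simulated data.

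The replicate block pairs mice of a cage, as the library names give it. As a check, the mean correlation of same-cage pairs was 0.177 in males (7 pairs) and 0.0239 in females (4 pairs), against -0.0294 and -0.00797 for other pairs. Within male cages 1 to 4 it was 0.131 for cage mates and 0.140 for other pairs, and within cages 5 to 7 it was 0.239 and 0.258, so this check did not set male cage mates apart from other mice of the same cages. Between samples of a group (54 pairs) the mean chi-square per gene was 1.81 to 16.6, so no library of a group repeats another of that group. Pairs across groups were not compared.

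Alternatives were DESeq2, its size factors, no filter, removal of each sample's loess trend on exon length (span 0.3) through offsets, the replicate block, both together, 1 fit of all samples, no rank term, subsets of cages, leaving out each library and, added after seeing the data, counts summed per cage. The members and lists were chosen with earlier results of these data known. Genes named are all members, the called genes of the pathway lists other than 1 that is not reported here, the most abundant gene of each list, and the 3 genes most correlated with Klhl3 after subtracting group means, besides markers. Wnk4, A230072E10Rik and the genes most like Wnk1 were named after their values were seen. Of the lists, 51 genes were listed and 47 tested. Slc12a1 and Slc12a3 were too low, and Clcn4 and Epb41l1 were not analysed here.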

Additional observations from a re-analysis of the deposited data

Results flagged for a closer look

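Of 36 combinations of a member and a group, 3 held a sample far from the others of its group, and chance alone marks about 1 in 20 groups. Cul3 was at 163 CPM in dominant male 2, with the other dominant males at 132 to 144 CPM. Cul3 was at 164 CPM in submissive male 1, with the other submissive males at 144 to 149.9 CPM. Wnk2 was at 35.0 CPM in dominant male 6, with the other dominant males at 48.0 to 57.5 CPM.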

How the results depend on the processing

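The number of members called between ranks in females was 1, beside 14 of all genes. It was 2 with no filter on low counts (beside 84), 0 with the exon length trend removed (0), 0 with all 22 samples in 1 fit (0), 0 in cages 1 and 2 alone (5), 0 in cages 3 and 4 alone (120), and 0 to 2 when each library was left out in turn (0 to 77, the most without dominant female 2). With the replicate block it was 1 (36), and with the block and the removal of the length trend together also 1 (8). The block alone changed no call of a member, in either sex or in the interaction. Between male cages 1 member was called beside 868 of all genes, 0 with the exon length trend removed (511) and 1 to 2 when each library was left out (381 to 2102, the most without submissive male 1). The counts for rank in males, cage in females and the interaction were 0 under every alternative run, and between females and males the count was 5 to 6, beside 4523 to 5773 of all genes.

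Small log2 fold changes changed sign under some alternatives, and the cause was not tested. In females, with the length trend removed, Wnk3 was -0.033 and Slc12a2 -0.024, and with the block added -0.033 and -0.025. In cages 3 and 4 alone Slc12a2 was -0.076. With each library left out, rank in females ran from -0.025 to 0.030 for Cul3 and from -0.015 to 0.038 for Slc12a2. In males, Klhl3 was -0.043 in cages 5 to 7 alone, and in cages 1 to 4 alone Wnk3 was -0.0091 and Stk39 -0.0016. With each library left out, rank in males ran from -0.022 to 0.072 for Klhl3, from -0.013 to 0.018 for Wnk3 and from -0.0073 to 0.029 for Stk39. Between the tables, with the length trend removed, Wnk3 was 0.046 and Slc12a2 0.067, and with each library left out Slc12a2 ran from -0.038 to 0.014. In the interaction, Wnk3 was -0.061 with the length trend removed. Over the alternatives of all 54 member results, 1076 values kept direction and side of the threshold, 18 passed it, 12 fell below it and 27 changed sign.

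Klhl3, with 207 to 308 counts per sample, was the member most limited by depth. Females were 4 per rank from 4 cages. Rank was tested on mice of the same cages only, and intermediate ranks were not analysed here. RNA levels do not give protein or phosphorylation.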
